A study of Mus musculus with 21 samples.

Results

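Interferon-stimulated genes are genes whose transcription is switched on when a cell receives an interferon signal. A set of 46 of them, listed by symbol with earlier results of these data known, was followed through 7 sorted populations of mouse bone marrow progenitors. All 46 were found among the 47643 genes of the count table by their Ensembl identifiers, and 45 of them were among the 14801 genes that passed the filter on low counts. The exception was Ifit3, with 23 counts over all 21 libraries and at most 11 in any one.

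Interferons bind surface receptors that activate the kinases JAK1 and TYK2. The kinases in turn activate a factor, of which IRF9 is a part, that binds the interferon-stimulated response element (ISRE) in the promoters of these genes. Many of the products block viruses at a defined step, and a low level of them is known to be present in stem and progenitor cells without infection.

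The cells came from adult C57/B6 mice, and all were sorted as lineage-negative, SCA-1-negative, C-KIT-positive bone marrow cells. GMPs (granulocyte-monocyte progenitors) were the CD16/32-positive and CMPs (common myeloid progenitors) the CD16/32-negative part of the CD34-positive cells. Each was then divided by surface CD62L, an adhesion molecule, which gave CD62L-high, CD62L-int and CD62L-neg GMPs, and CD62L-high and CD62L-neg CMPs. Bulk GMPs and bulk CMPs were not divided by CD62L, and each of the 7 populations had 3 libraries. The study trisected CMPs by CD62L level but took narrower outer fractions of GMPs, so sorts of the same name were not gated alike. The study's methods say that a bulk CMP sample was left out for a low mapping rate, without naming it, and all 3 bulk CMP libraries of the count table are used here. The labels call the CD62L-int GMPs and the CD62L-neg CMPs CD62L-low, and the sources name no treatment or genetic change in any group. Because the sources do not say whether the 3 libraries of a group came from separate mice, p-values measure the spread between these libraries, which may be technical.

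Libraries held 6145834 to 15263573 counts, of which 4374 to 18687 lay on the 46 genes, and 41 to 46 of the genes had at least 1 count in a library. Levels are given as CPM (counts scaled to library size by TMM), and they do not correct for gene length. Fcgr3, which encodes a CD16/32 antigen, had 131 to 190 CPM in GMPs against 6.54 to 15.7 CPM in CMPs. CD62L-neg CMP replicate 1 stood apart from the other CD62L-neg CMPs in Irf8 (24.5 CPM, against 7.41 and 6.76 CPM), and it had the highest level of all 21 libraries for 15 of the 46 genes. In bulk CMP replicate 2 and CD62L-high GMP replicate 1, 3 abundant gene models (Gm26917, Gm42418 and Gm23935) held 61.0% and 41.1% of the counts, against 22.4% to 31.7% in the other libraries. The fits share all 21 libraries, so leaving out a library can move the counts of other comparisons too.

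Over all populations, 31 of the 45 genes tested (68.9%) differed among the 7 populations, against 39% of all genes tested (edgeR's quasi-likelihood F test, adjusted p under 0.05). Without bulk CMP replicate 2, CD62L-high GMP replicate 1, both of these or CD62L-neg CMP replicate 1, 33, 31, 34 and 28 genes differed, in that order. The other 14 included Stat2, Adar, Bst2, Cmpk2, Dhx58 and Dtx3l. The summed level of the 46 genes was 739 to 990 CPM in the 12 GMP libraries and 1051 to 1322 CPM in the 9 CMP libraries, without overlap. Per kilobase of exon, Ifitm2 led in 6 of the 7 populations, with means of 117 to 253 CPM per kilobase. The 253 was that of bulk CMPs, in which replicate 2 had the highest Ifitm2 level of all 21 libraries (292 CPM). In CD62L-neg CMPs the mean of Ifitm1 lay above that of Ifitm2 (163 against 158 CPM per kilobase). A bulk library cannot tell a lower level of a transcript in every cell from fewer cells that carry it.

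**Figure D1:**
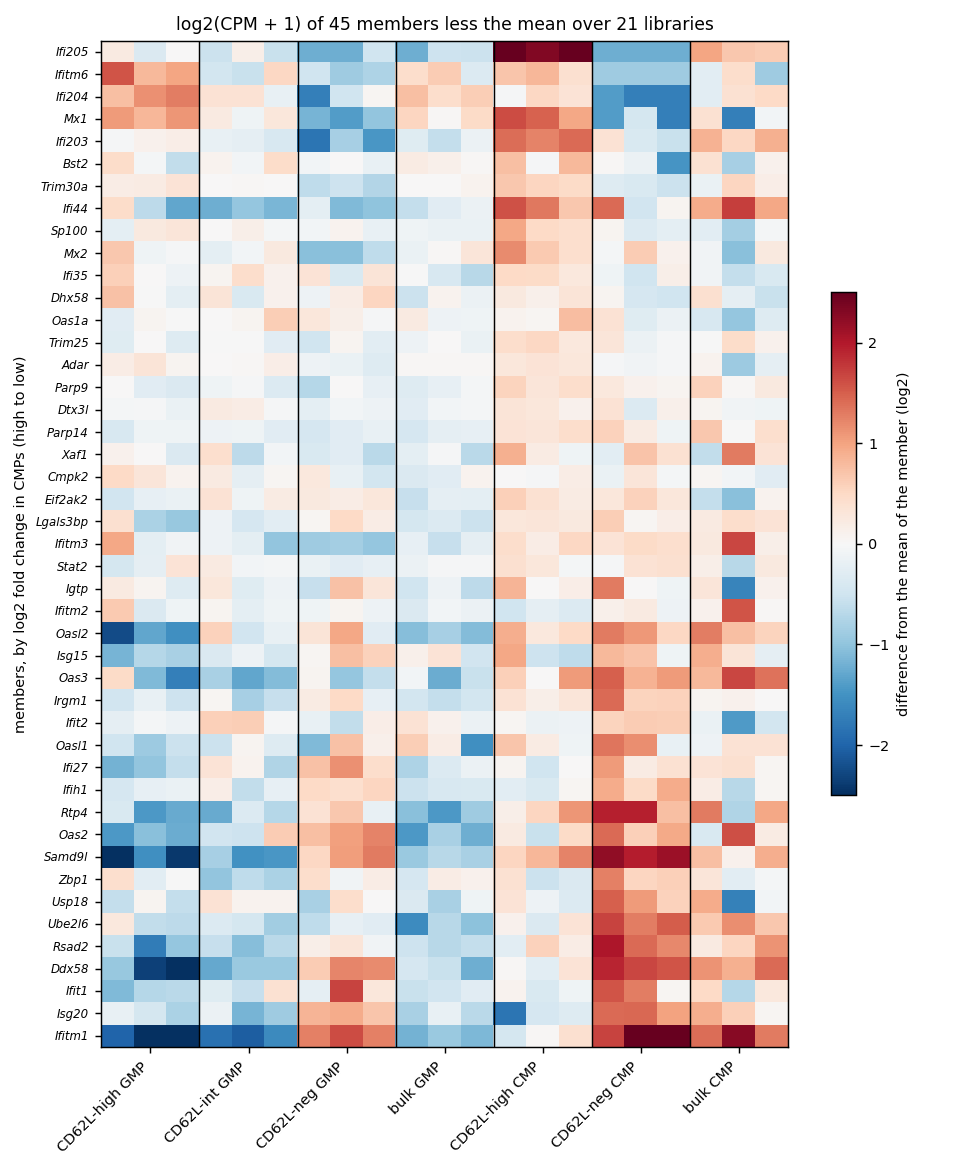
Heat map of the 45 genes past the filter (rows, ordered by the log2 fold change of CD62L-high over CD62L-neg CMPs) in the 21 libraries (columns, grouped by population). Colour is log2(CPM + 1) less the mean of the gene over all libraries, red above and blue below, and the scale is capped at 2.5 in each direction. Ifi205 and Mx1 were red in the 3 CD62L-high CMP libraries, and Ifitm1, Samd9l and Ddx58 were red in the 3 CD62L-neg CMP libraries.

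The comparison of CD62L-high with CD62L-neg CMPs asked which of these genes go with CD62L within CMPs. It divided the genes into groups that moved in opposite directions. Of the 45 genes tested, 6 rose (13.3%) and 6 fell (13.3%), against 5.62% of all genes that rose and 4.84% that fell. A gene was called where its adjusted p was under 0.05 and its fold change over 2. The median log2 fold change of the 45 genes was -0.03, beside 0.01 for all genes, and the libraries did not overlap for 11 genes that lay above and 14 that lay below, or 24.4% and 31.1% of the 45, against 21.1% and 17.8% of all genes. The genes that rose were Ifi203, Ifi204, Ifi205, Mx1, Ifitm6 and Trim30a. The genes that fell were Ifitm1, Isg20, Ddx58, Ube2l6, Samd9l and Ifih1.

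All 3 genes of the p200 family rose. Its proteins carry a HIN domain that binds DNA, and several take part in sensing DNA or in macrophage differentiation. Ifi205 had 14.9, 10.6 and 12.4 CPM in CD62L-high CMPs and no count in any CD62L-neg CMP library. With 556 counts against 0, it was at least 97.7-fold higher, taking 3 counts over the group as the floor (edgeR adjusted p = 2.82e-05). Bulk CMPs lay between these groups (3.62, 2.69 and 2.61 CPM), and no GMP library went above 1.72 CPM.

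Ifi204, whose product binds DNA in the nucleus and the cytosol, followed at a lower level. It had 2.21, 3.68 and 3.15 CPM in CD62L-high CMPs, against 0.242, 0 and 0 CPM in CD62L-neg CMPs and 1.74, 3.29 and 3.66 CPM in bulk CMPs. The ratio of 36.1 rests on 137 against 2 counts, and its 95% counting interval of 9.81 to 301 covers counting error only (edgeR adjusted p = 0.00116).

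Ifi203, the most abundant of the family in CPM, had 110.0, 97.98 and 111 CPM in CD62L-high CMPs, against 53.03, 31.5 and 27.7 CPM in CD62L-neg CMPs and 75.5, 59.5 and 76.8 CPM in bulk CMPs. The log2 fold change was 1.5 ± 0.23 (SE), with an edgeR adjusted p of 3.02e-05, and the groups did not overlap. The 3 genes lie in a cluster on chromosome 1 and are related in sequence, and Ifi203 also overlaps Mndal on the same strand over 22085 bases. The counting could therefore misassign or leave out their reads, and the value of each single gene is uncertain.

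Mx1 encodes a dynamin-like GTPase that traps viral nucleocapsids, although inbred C57BL/6 mice are known to carry a defective allele. It had 9.01, 8.001 and 5.32 CPM in CD62L-high CMPs, against 0.242, 1.404 and 0 CPM in CD62L-neg CMPs, and the log2 fold change was 3.73 ± 0.79 (SE; edgeR adjusted p = 0.00124). Bulk CMPs were spread over 3.22, 0 and 2.09 CPM, the 0 being that of replicate 2.

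Ifitm6, a member of the IFITM family of small membrane proteins, had 1.98, 2.29 and 1.42 CPM in CD62L-high CMPs and no count in CD62L-neg CMPs. It was at least 14.8-fold higher by the same floor (84 against 0 counts; edgeR adjusted p = 0.00439). Bulk CMPs had 0.536, 1.495 and 0 CPM.

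Trim30a, which encodes a RING protein known to dampen NF-κB signalling in mice, was the least changed of those that rose. It had 67.7, 61.3 and 58.5 CPM in CD62L-high CMPs, against 33.2, 31.8 and 28.4 CPM in CD62L-neg CMPs and 37.4, 60.99 and 46.9 CPM in bulk CMPs. Its log2 fold change of 1.01 ± 0.15 (SE; edgeR adjusted p = 3.15e-05) lay at the fold threshold, and 7 of 15 alternatives moved it under 2-fold.

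**Figure D2:**
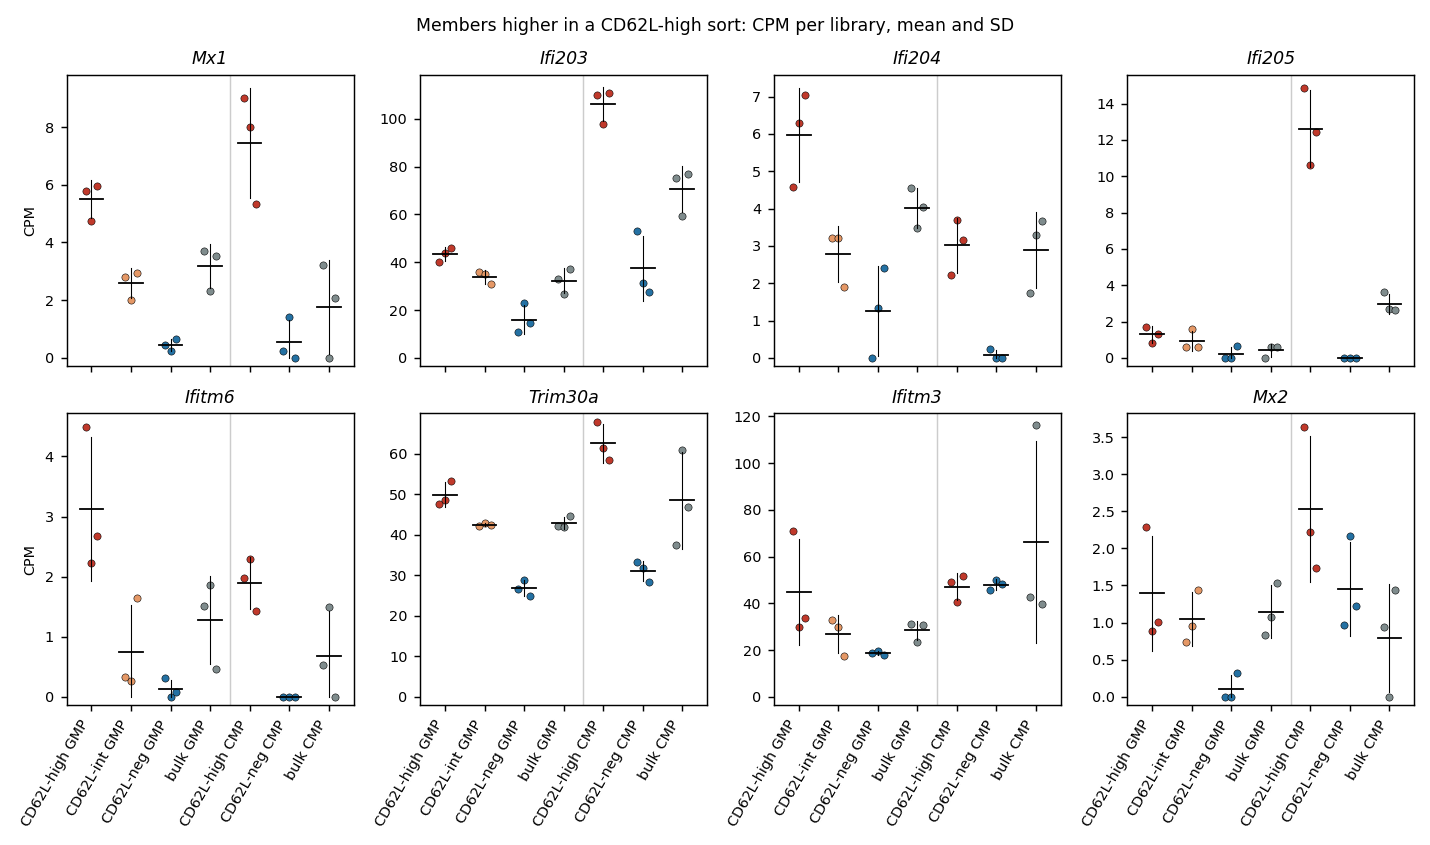
CPM of 8 genes that rose in CD62L-high over CD62L-neg CMPs, in CD62L-high over CD62L-neg GMPs, or in both. Each point is a library, the horizontal line the mean of 3 libraries and the vertical line 1 SD, cut off at 0. Ifi205 had 10.6 to 14.9 CPM in CD62L-high CMPs and at most 3.62 CPM in the other sorts, whereas Mx1 was high in CD62L-high CMPs and CD62L-high GMPs (4.75 to 9.01 CPM).

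Among the genes that fell, Ifitm1 had the lowest adjusted p. Its product is a small membrane protein of the family that keeps enveloped viruses from fusing with the cell. Its level was 21.6, 30.1 and 39.5 CPM in CD62L-high CMPs, against 96.8, 229 and 211 CPM in CD62L-neg CMPs and 79.3, 147 and 74.3 CPM in bulk CMPs. It fell by 2.55 ± 0.32 (SE) on the log2 scale, with an edgeR adjusted p of 1.75e-06, and every CD62L-neg library lay above every CD62L-high library.

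Isg20, an exonuclease that degrades single-stranded RNA, had 0.237, 2.29 and 2.54 CPM in CD62L-high CMPs, against 10.8, 10.9 and 7.84 CPM in CD62L-neg CMPs and 7.24, 5.68 and 3.53 CPM in bulk CMPs (log2 fold change -2.52 ± 0.56, SE; edgeR adjusted p = 0.00206). Ube2l6, the E2 enzyme that passes ISG15 to its targets, had 6.56, 4.45 and 7.85 CPM in CD62L-high CMPs, against 21.4, 15.96 and 19.1 CPM in CD62L-neg CMPs and 10.1, 14.7 and 10.2 CPM in bulk CMPs (log2 fold change -1.58 ± 0.36, SE; edgeR adjusted p = 0.00228). In both, the CD62L-high and CD62L-neg libraries were fully separate.

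Both cytosolic RNA sensors with signalling CARD domains fell. Ddx58, which encodes RIG-I, had 7.91, 6.29 and 10.1 CPM in CD62L-high CMPs, against 31.9, 26.7 and 25.1 CPM in CD62L-neg CMPs and 17.96, 15.3 and 22.2 CPM in bulk CMPs (log2 fold change -1.78 ± 0.51, SE; edgeR adjusted p = 0.0164). Ifih1, which encodes MDA5, had 12.4, 11.4 and 15.7 CPM in CD62L-high CMPs, against 29.9, 21.6 and 29.9 CPM in CD62L-neg CMPs and 17.4, 8.97 and 15.7 CPM in bulk CMPs (log2 fold change -1.04 ± 0.24, SE; edgeR adjusted p = 0.00288). Dhx58, which encodes the related helicase LGP2 without CARD domains, was not called (log2 fold change 0.54 ± 0.33, SE; edgeR adjusted p = 0.322).

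Samd9l, an antiviral protein whose human counterpart restrains the growth of blood progenitors, had 13.9, 17.3 and 23.5 CPM in CD62L-high CMPs, against 47.3, 39.3 and 44.5 CPM in CD62L-neg CMPs and 16.4, 10.2 and 18.4 CPM in bulk CMPs. It fell by 1.26 ± 0.42 (SE) on the log2 scale (edgeR adjusted p = 0.0414). This call was lost without any single one of the 6 libraries, with adjusted p up to 0.171, and those of Ddx58 and Ifih1 were each lost without 3 libraries. Without CD62L-neg CMP replicate 1 or without CD62L-high CMP replicate 2, 3 of the 45 genes were called lower. Without bulk CMP replicate 2, 7 rose and 7 fell, and without both libraries rich in the 3 gene models, 6 rose and 7 fell.

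**Figure D3:**
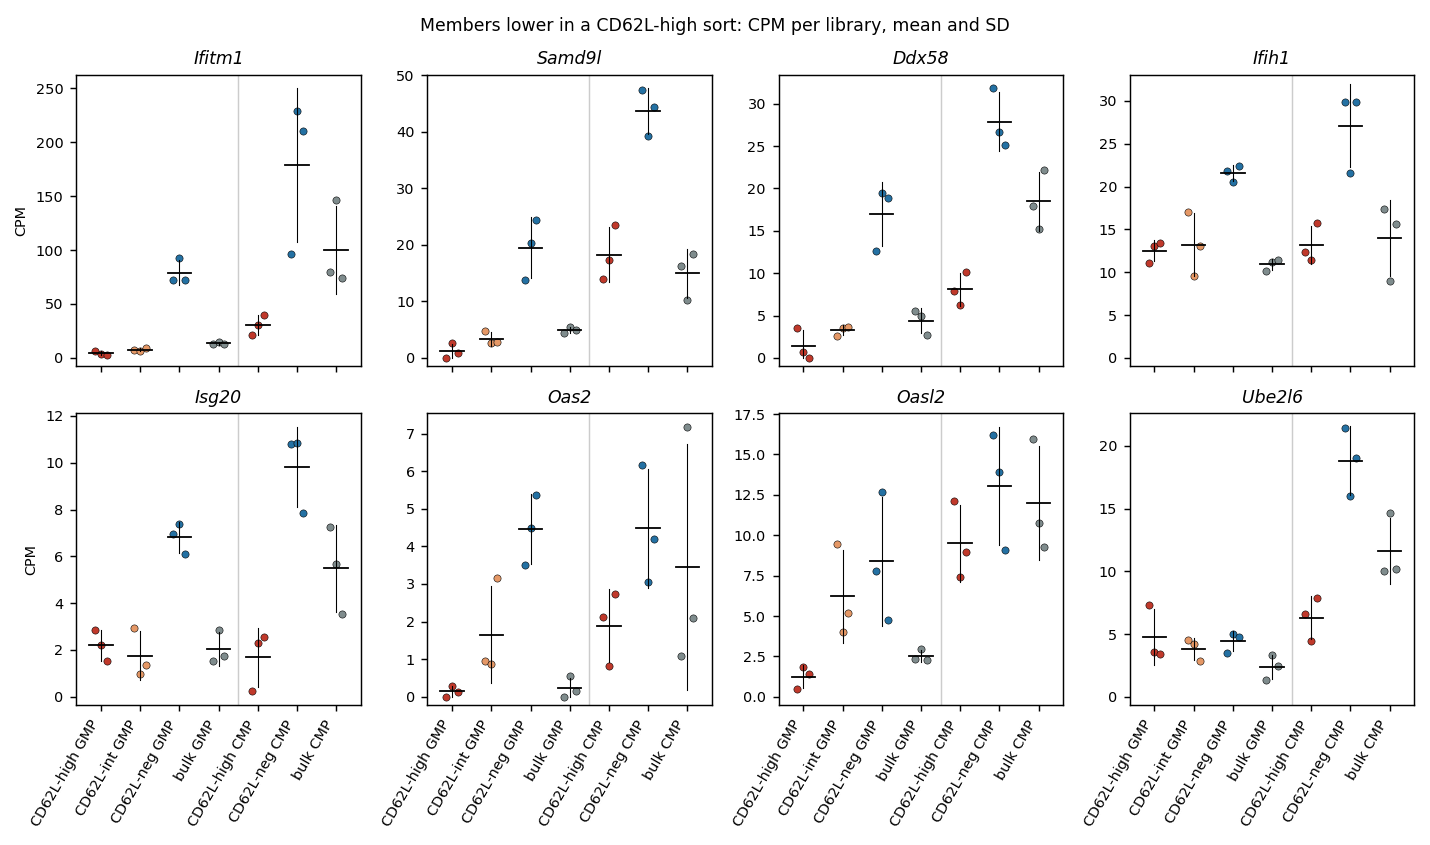
CPM of 8 genes that fell in CD62L-high over CD62L-neg CMPs, in CD62L-high over CD62L-neg GMPs, or in both. Each point is a library, the horizontal line the mean of 3 libraries and the vertical line 1 SD, cut off at 0. Ifitm1, Samd9l, Ddx58 and Isg20 were lower in the CD62L-high than in the CD62L-neg sort of CMPs and of GMPs, and Ube2l6 had 10.1 to 21.4 CPM in CD62L-neg and bulk CMPs.

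The promoters of these groups are shown with the interferon response elements they hold. RefSeq promoters (GRCm38.p6, 250 bases before to 50 bases after the start) were matched for 35 of the 46 genes. The ISRE core GAAANNGAA occurred on either strand in 22 of the 35 (62.9%), against 8.6% of all promoters and 9.8% of all genes. The ETS-IRF composite GGAANNGAA, which can share letters with the ISRE core, occurred on either strand in 8 of 35 (22.9%), against 9.4% of all genes. Another interferon response element, GAS (TTCNNNGAA), occurred in 10 of 35 (28.6%), against 9.6% of all genes. It was found in 1 of 4 matched genes that rose in CD62L-high CMPs and in 1 of 6 that fell. An ISRE core was found in 3 of 4 matched genes that rose in CD62L-high CMPs and in 3 of 6 that fell, so the element was on both sides. The promoters below belong to the genes of both groups that hold an ISRE core, which is in capitals. Sequences run 5′ to 3′ along the gene.
Ifi205 (rose; chr1:174031706-174032005, minus strand): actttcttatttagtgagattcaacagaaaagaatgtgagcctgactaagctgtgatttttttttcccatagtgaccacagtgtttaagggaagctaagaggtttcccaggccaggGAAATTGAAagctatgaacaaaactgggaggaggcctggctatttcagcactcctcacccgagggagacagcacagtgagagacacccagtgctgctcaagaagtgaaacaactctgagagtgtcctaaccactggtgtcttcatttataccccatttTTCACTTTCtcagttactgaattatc
Ifi203 (rose; chr1:173942443-173942742, minus strand): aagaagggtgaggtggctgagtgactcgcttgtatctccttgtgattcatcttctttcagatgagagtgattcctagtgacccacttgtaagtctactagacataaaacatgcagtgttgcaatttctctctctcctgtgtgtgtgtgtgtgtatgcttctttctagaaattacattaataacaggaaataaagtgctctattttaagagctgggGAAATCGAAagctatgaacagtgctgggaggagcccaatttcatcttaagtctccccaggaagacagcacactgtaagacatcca
Trim30a (rose; chr7:104465144-104465443, minus strand): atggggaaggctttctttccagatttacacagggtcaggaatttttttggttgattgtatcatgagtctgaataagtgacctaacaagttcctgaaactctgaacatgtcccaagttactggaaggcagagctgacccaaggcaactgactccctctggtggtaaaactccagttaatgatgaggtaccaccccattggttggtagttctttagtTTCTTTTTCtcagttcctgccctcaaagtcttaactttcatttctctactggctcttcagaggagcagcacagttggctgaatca
Ddx58 (fell; chr4:40239776-40240075, minus strand): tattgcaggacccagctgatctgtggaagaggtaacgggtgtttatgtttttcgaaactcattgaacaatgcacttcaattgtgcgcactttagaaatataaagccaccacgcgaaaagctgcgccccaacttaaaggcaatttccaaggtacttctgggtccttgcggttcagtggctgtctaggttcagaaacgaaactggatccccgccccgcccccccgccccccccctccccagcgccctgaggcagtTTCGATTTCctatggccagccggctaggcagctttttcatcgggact
Samd9l (fell; chr6:3399522-3399821, minus strand): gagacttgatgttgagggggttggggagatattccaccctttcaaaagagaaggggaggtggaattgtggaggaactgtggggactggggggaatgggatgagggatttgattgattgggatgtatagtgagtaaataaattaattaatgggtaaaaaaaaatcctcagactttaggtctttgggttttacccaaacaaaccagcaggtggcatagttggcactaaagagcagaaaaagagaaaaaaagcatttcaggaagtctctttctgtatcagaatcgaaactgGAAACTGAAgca
Ifih1 (fell; chr2:62646206-62646505, minus strand): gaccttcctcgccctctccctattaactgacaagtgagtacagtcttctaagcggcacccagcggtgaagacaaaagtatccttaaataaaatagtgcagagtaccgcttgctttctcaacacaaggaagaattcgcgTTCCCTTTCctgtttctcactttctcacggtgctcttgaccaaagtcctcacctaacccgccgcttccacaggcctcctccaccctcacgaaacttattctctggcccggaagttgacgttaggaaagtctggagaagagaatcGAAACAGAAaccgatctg
The printed cores of Ifi203 and Trim30a began 35 bases before the start, and that of Ddx58 began 3 bases after it. Ifi203 and Trim30a each had another promoter that is not printed. That of Ifi203 held no core, and that of Trim30a held a core 3 bases after its start. A match describes the letters of this window and does not show that a factor binds there.

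Within GMPs, the comparison of CD62L-high with CD62L-neg cells asked the same question one stage later, in other libraries. Of the 45 genes tested, 6 rose (13.3%) and 10 fell (22.2%), against 4.49% of all genes that rose and 6.01% that fell. The median log2 fold change was 0.01, beside -0.04 for all genes. Libraries did not overlap for 9 genes above and 13 below (20% and 28.9% of the 45, against 15.2% and 17% of all genes). The genes that rose were Ifitm6, Mx1, Mx2, Ifi204, Ifi203 and Ifitm3. The genes that fell were Oas2, Ifitm1, Samd9l, Ifit1, Ddx58, Isg15, Oasl2, Rsad2, Ifi27 and Isg20.

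The split seen in CMPs is described here in the GMP libraries without a test. Of the 6 genes that rose in CMPs, 4 rose in GMPs (66.7%), and all 6 had a positive log2 fold change there, with a median of 2.40. Of the 6 that fell in CMPs, 4 fell in GMPs (66.7%), and 5 had a negative log2 fold change there, with a median of -2.63. For comparison, 42.9% of all genes that rose in CMPs rose in GMPs and 48.5% of all that fell in CMPs fell in GMPs. Seen from the GMPs, 66.7% of the genes of the set that rose and 40% of those that fell were called in the same direction in CMPs. No gene of the set was called in opposite directions, which was rare among all genes too. Of all 832 genes that rose in CMPs, 31 fell in GMPs, and of all 717 that fell, 7 rose. Without CD62L-high GMP replicate 1, 4 genes of the set rose and 10 fell in GMPs, against 7 and 11 without bulk CMP replicate 2, and 5 and 11 without both.

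**Figure D4:**
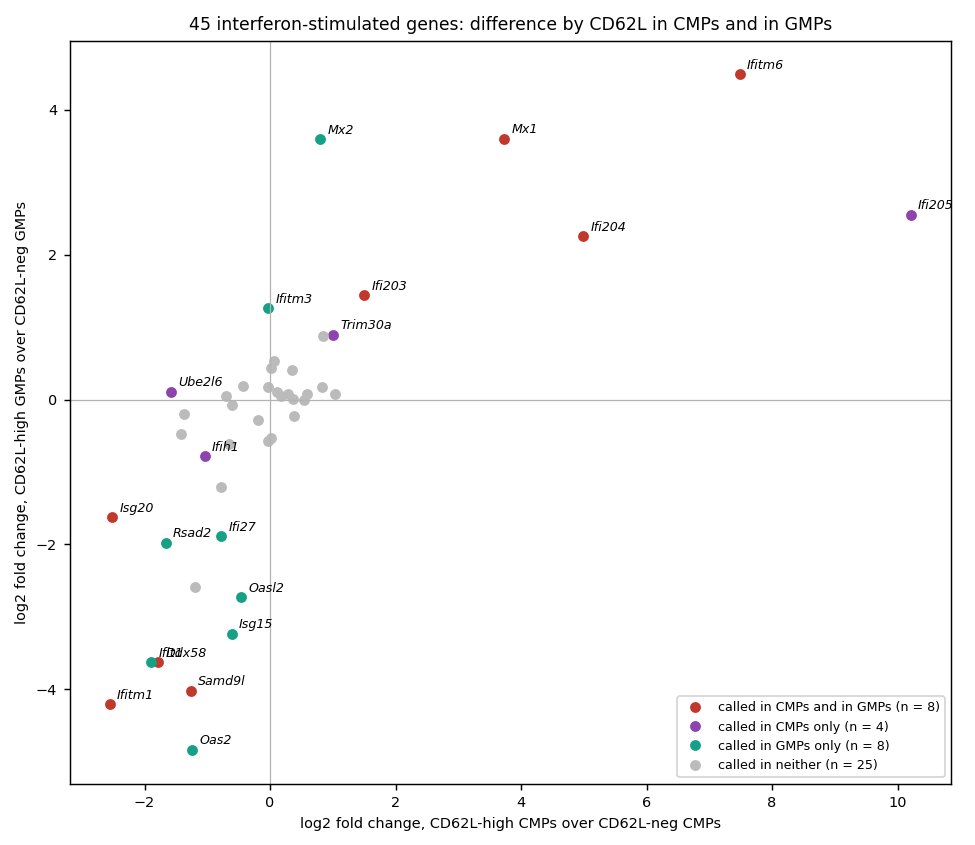
Log2 fold change of CD62L-high over CD62L-neg GMPs (vertical) against that of CD62L-high over CD62L-neg CMPs (horizontal) for the 45 genes past the filter. Colours mark the genes called in CMPs and GMPs (8), in CMPs but not GMPs (4), in GMPs but not CMPs (8) and in neither (25). The horizontal values of Ifi205 and Ifitm6 are fitted against libraries with 0 counts, so their size is no measure of the fold.

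The genes that rose in CMPs and GMPs alike were Mx1, Ifitm6, Ifi203 and Ifi204. Mx1 had 5.798, 4.75 and 5.96 CPM in CD62L-high GMPs, 2.82, 2.003 and 2.95 CPM in CD62L-int GMPs, 0.459, 0.236 and 0.641 CPM in CD62L-neg GMPs and 3.71, 2.32 and 3.52 CPM in bulk GMPs. CD62L-int and bulk GMPs thus lay between the other sorts, and the log2 fold change of CD62L-high over CD62L-neg GMPs was 3.60 ± 0.77 (SE; edgeR adjusted p = 0.00151). Ifi203 had 40.2, 44.1 and 46.1 CPM in CD62L-high, 36.03, 35.02 and 30.7 CPM in CD62L-int, 10.9, 22.8 and 14.4 CPM in CD62L-neg and 32.95, 26.7 and 36.99 CPM in bulk GMPs (log2 fold change 1.44 ± 0.23, SE; edgeR adjusted p = 7.53e-05).

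Ifi204 had 4.57, 6.304 and 7.03 CPM in CD62L-high, 3.22, 3.22 and 1.903 CPM in CD62L-int, 0, 1.34 and 2.404 CPM in CD62L-neg and 4.55, 3.47 and 4.05 CPM in bulk GMPs (log2 fold change 2.26 ± 0.72, SE; edgeR adjusted p = 0.0319). Ifitm6 had 4.49, 2.23 and 2.68 CPM in CD62L-high, 0.335, 0.261 and 1.64 CPM in CD62L-int, 0.306, 0 and 0.0801 CPM in CD62L-neg and 1.52, 1.85 and 0.459 CPM in bulk GMPs (log2 fold change 4.48 ± 1.17, SE; edgeR adjusted p = 0.00929). Both were lowest in CD62L-neg GMPs on average, and in both the CD62L-high libraries lay above all CD62L-neg libraries. Trim30a had 47.5, 48.7 and 53.3 CPM in CD62L-high, 42.2, 42.9 and 42.3 CPM in CD62L-int, 26.7, 28.8 and 24.8 CPM in CD62L-neg and 42.2, 41.9 and 44.6 CPM in bulk GMPs, and its log2 fold change of 0.90 ± 0.15 (SE) passed the adjusted p (edgeR, 0.000147) but not the fold. Ifi205 had 1.72, 0.816 and 1.34 CPM in CD62L-high, 0.604, 1.57 and 0.591 CPM in CD62L-int, 0, 0 and 0.641 CPM in CD62L-neg and 0, 0.617 and 0.611 CPM in bulk GMPs and was not called (edgeR adjusted p = 0.0697).

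Of the genes that fell in CMPs and GMPs alike, Ifitm1 and Samd9l differed most between the GMP sorts. Ifitm1 had 6.62, 3.93 and 2.48 CPM in CD62L-high, 7.38, 6.36 and 9.06 CPM in CD62L-int, 72.5, 92.9 and 72.3 CPM in CD62L-neg and 12.5, 14.97 and 12.99 CPM in bulk GMPs. It fell by 4.20 ± 0.36 (SE) on the log2 scale in CD62L-high against CD62L-neg GMPs (edgeR adjusted p = 7.11e-09). Samd9l had 0, 2.596 and 0.937 CPM in CD62L-high, 4.83, 2.61 and 2.76 CPM in CD62L-int, 13.8, 20.4 and 24.4 CPM in CD62L-neg and 4.47, 5.402 and 4.89 CPM in bulk GMPs and fell by 4.02 ± 0.52 (SE; edgeR adjusted p = 3.34e-06). In each gene, no CD62L-int or bulk GMP library reached the CD62L-neg libraries.

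Ddx58 had 3.51, 0.742 and 0 CPM in CD62L-high, 2.62, 3.57 and 3.61 CPM in CD62L-int, 12.6, 19.5 and 18.8 CPM in CD62L-neg and 5.53, 4.94 and 2.75 CPM in bulk GMPs (log2 fold change -3.62 ± 0.59, SE; edgeR adjusted p = 7.67e-05). Isg20 had 2.86, 2.23 and 1.54 CPM in CD62L-high, 2.95, 0.958 and 1.38 CPM in CD62L-int, 6.96, 7.39 and 6.09 CPM in CD62L-neg and 1.52, 2.86 and 1.76 CPM in bulk GMPs (log2 fold change -1.63 ± 0.54, SE; edgeR adjusted p = 0.0415), and this call was lost without any single one of the 6 libraries. Ifih1, the other RNA sensor, had 11.1, 13.1 and 13.4 CPM in CD62L-high, 17.04, 9.58 and 13.1 CPM in CD62L-int, 21.8, 20.5 and 22.4 CPM in CD62L-neg and 10.2, 11.2 and 11.4 CPM in bulk GMPs, a log2 fold change of -0.78 ± 0.24 (SE) that passed the adjusted p (edgeR, 0.0239) but not the fold. Ube2l6 did not follow this direction, with 7.35, 3.56 and 3.42 CPM in CD62L-high, 4.495, 4.18 and 2.82 CPM in CD62L-int, 3.52, 5.03 and 4.73 CPM in CD62L-neg and 1.36, 3.32 and 2.45 CPM in bulk GMPs (log2 fold change 0.11 ± 0.36, SE; edgeR adjusted p = 0.896).

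A further 6 genes fell in GMPs that were not called between the CMP sorts. Of these 6, the contrast of the CMP and GMP effects called Oasl2 alone. For Oas2, Ifi27 and Rsad2, every CD62L-high CMP library also lay below every CD62L-neg CMP library, as for 17.8% of all genes. The enzymes of the OAS family make short oligoadenylates that activate the RNA-degrading RNase L. Oas2 had 0, 0.297 and 0.134 CPM in CD62L-high, 0.939, 0.871 and 3.15 CPM in CD62L-int, 3.52, 4.48 and 5.37 CPM in CD62L-neg and 0, 0.5402 and 0.153 CPM in bulk GMPs (log2 fold change -4.83 ± 0.99, SE; edgeR adjusted p = 0.00103). Its CMP levels were 2.13, 0.826 and 2.72 CPM in the CD62L-high, 6.18, 3.06 and 4.19 CPM in the CD62L-neg and 1.07, 7.18 and 2.09 CPM in the bulk sort. The OAS-like gene Oasl2, whose product carries ubiquitin-like repeats, had 0.49, 1.85 and 1.41 CPM in CD62L-high, 9.46, 4.01 and 5.19 CPM in CD62L-int, 7.795, 12.7 and 4.73 CPM in CD62L-neg and 2.35, 2.93 and 2.29 CPM in bulk GMPs (log2 fold change -2.72 ± 0.46, SE; edgeR adjusted p = 0.000114). In CMPs, Oasl2 had 12.1, 7.43 and 8.97 CPM in the CD62L-high, 16.2, 13.9 and 9.06 CPM in the CD62L-neg and 15.95, 10.8 and 9.27 CPM in the bulk sort, and these sorts overlapped.

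Ifi27, a mitochondrial and nuclear membrane protein, had 3.76, 4.45 and 6.16 CPM in CD62L-high, 12.7, 10.5 and 5.38 CPM in CD62L-int, 16.97, 22.8 and 13.7 CPM in CD62L-neg and 5.302, 7.49 and 8.71 CPM in bulk GMPs (log2 fold change -1.89 ± 0.34, SE; edgeR adjusted p = 0.000236). In CMPs it had 10.4, 6.604 and 9.89 CPM in the CD62L-high, 21.7, 11.5 and 12.98 CPM in the CD62L-neg and 12.7, 13.2 and 10.2 CPM in the bulk sort. Ifit1, Isg15 and Rsad2 had low levels beside the floor of detection, which lay at 0.186 to 0.897 CPM (3 counts) per library. Ifit1, which binds foreign RNA at its incompletely methylated cap, had 0, 0.297 and 0.335 CPM in CD62L-high, 0.738, 0.436 and 1.77 CPM in CD62L-int, 0.841, 5.89 and 1.603 CPM in CD62L-neg and 0.455, 0.5402 and 0.764 CPM in bulk GMPs (log2 fold change -3.63 ± 0.98, SE; edgeR adjusted p = 0.0111), and 1.27, 0.635 and 0.989 CPM in CD62L-high, 5.33, 4.21 and 1.22 CPM in CD62L-neg and 2.01, 0.299 and 1.57 CPM in bulk CMPs.

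Isg15, the ubiquitin-like modifier itself, had 0, 0.371 and 0.268 CPM in CD62L-high, 0.738, 1.05 and 0.656 CPM in CD62L-int, 1.299, 2.75 and 2.32 CPM in CD62L-neg and 1.44, 1.85 and 0.611 CPM in bulk GMPs (log2 fold change -3.23 ± 0.96, SE; edgeR adjusted p = 0.0205), and 3.399, 0.572 and 0.433 CPM in CD62L-high, 2.91, 2.68 and 1.08 CPM in CD62L-neg and 3.22, 1.79 and 0.914 CPM in bulk CMPs. Rsad2, which encodes viperin and makes a chain-terminating nucleotide, had 1.31, 0 and 0.737 CPM in CD62L-high, 1.28, 0.6097 and 1.12 CPM in CD62L-int, 2.75, 3.14 and 2.16 CPM in CD62L-neg and 1.36, 1.08 and 1.22 CPM in bulk GMPs (log2 fold change -1.98 ± 0.67, SE; edgeR adjusted p = 0.0438). Without CD62L-neg GMP replicate 2, the calls of Ifit1, Isg15, Isg20, Rsad2, Mx2 and Ifi204 were lost and 6 of the 45 genes were called lower. That library had the highest Ifit1 level of all 21 (5.89 CPM).

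Mx2 and Ifitm3 rose in GMPs and were not called in CMPs, but the contrast of the CMP and GMP effects did not call either of them (CMP minus GMP -2.80 and -1.29 on the log2 scale, edgeR adjusted p of 0.255 and 0.104). Mx2, a dynamin-like GTPase related to Mx1, had 2.29, 0.8899 and 1.004 CPM in CD62L-high, 0.738, 0.958 and 1.44 CPM in CD62L-int, 0, 0 and 0.321 CPM in CD62L-neg and 0.833, 1.08 and 1.53 CPM in bulk GMPs (log2 fold change 3.59 ± 1.05, SE; edgeR adjusted p = 0.0191), a call lost in 4 of 15 alternatives. In CMPs it had 3.64, 2.22 and 1.73 CPM in the CD62L-high, 0.969, 2.17 and 1.22 CPM in the CD62L-neg and 0.938, 0 and 1.44 CPM in the bulk sort.

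Ifitm3, which blocks entry of enveloped viruses from endosomes, had 70.9, 30.03 and 33.7 CPM in CD62L-high, 32.9, 30.1 and 17.5 CPM in CD62L-int, 18.9, 19.5 and 17.8 CPM in CD62L-neg and 30.98, 23.6 and 30.6 CPM in bulk GMPs (log2 fold change 1.26 ± 0.33, SE; edgeR adjusted p = 0.00956). The 70.9 CPM was that of CD62L-high GMP replicate 1, 1 of the libraries rich in the 3 gene models, and without it the log2 fold change was 0.77 and the call was lost (edgeR adjusted p = 0.121). Bulk CMP replicate 2, the other such library, likewise had the highest Ifitm3 and Ifitm2 levels among the CMPs, and Ifitm3 stood at 48.9, 40.6 and 51.9 CPM in CD62L-high, 45.5, 50.2 and 48.4 CPM in CD62L-neg and 42.9, 116 and 39.8 CPM in bulk CMPs. The part of these gene models in the Ifitm3 values was not tested.

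The 4 genes of the IFITM family lie near each other on chromosome 7 and were called in different directions. Ifitm1 was higher in the CD62L-neg sorts, Ifitm6 in the CD62L-high sorts and Ifitm3 in CD62L-high GMPs, a call that was lost without replicate 1, while Ifitm2 was not called in CMPs (log2 fold change -0.43 ± 0.29, SE; edgeR adjusted p = 0.386) or GMPs (0.18 ± 0.29; edgeR adjusted p = 0.745). Ifitm2 overlaps the coding gene model Gm45717 on the same strand over 1101 bases, and the 4 genes are related in sequence, so their counts are uncertain to that extent. Their promoters are shown to compare the neighbours. Ifitm2 and Ifitm3 held the ISRE core (capitals), whereas Ifitm1 and Ifitm6 held none in this window, and Ifitm6 held 2 matches of the ETS-IRF composite. The GAS element occurred in Ifitm3 and Ifitm6 but not in Ifitm1 or Ifitm2.
Ifitm1 (higher in CD62L-neg sorts; chr7:140967826-140968125, plus strand): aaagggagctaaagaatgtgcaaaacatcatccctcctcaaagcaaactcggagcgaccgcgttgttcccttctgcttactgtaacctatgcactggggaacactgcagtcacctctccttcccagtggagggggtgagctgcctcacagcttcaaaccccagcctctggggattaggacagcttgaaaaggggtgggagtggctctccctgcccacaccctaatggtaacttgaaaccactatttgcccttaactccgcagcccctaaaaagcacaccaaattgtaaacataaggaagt
Ifitm6 (higher in CD62L-high sorts; chr7:141016843-141017142, minus strand): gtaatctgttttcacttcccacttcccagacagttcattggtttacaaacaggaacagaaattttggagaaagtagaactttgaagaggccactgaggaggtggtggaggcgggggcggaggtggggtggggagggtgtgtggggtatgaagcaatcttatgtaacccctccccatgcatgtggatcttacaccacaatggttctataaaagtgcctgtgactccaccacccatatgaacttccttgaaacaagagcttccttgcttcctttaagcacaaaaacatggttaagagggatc
Ifitm3 (higher in CD62L-high GMPs; chr7:141010695-141010994, minus strand): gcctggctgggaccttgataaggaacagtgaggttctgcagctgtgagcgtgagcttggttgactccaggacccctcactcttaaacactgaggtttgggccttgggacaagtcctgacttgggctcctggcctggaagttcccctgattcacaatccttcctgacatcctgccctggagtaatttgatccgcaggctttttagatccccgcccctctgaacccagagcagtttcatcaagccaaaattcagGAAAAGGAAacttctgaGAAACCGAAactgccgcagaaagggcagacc
Ifitm2 (not called by CD62L; chr7:140955912-140956211, minus strand): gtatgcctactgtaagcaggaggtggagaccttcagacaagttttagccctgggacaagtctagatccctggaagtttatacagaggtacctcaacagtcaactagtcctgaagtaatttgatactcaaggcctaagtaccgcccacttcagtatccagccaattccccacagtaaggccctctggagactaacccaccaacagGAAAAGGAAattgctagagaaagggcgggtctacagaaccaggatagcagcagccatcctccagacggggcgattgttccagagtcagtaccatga

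The CD62L effect was compared between CMPs and GMPs by the contrast of both log2 fold changes. The GMP sorts were narrower outer fractions by CD62L than the CMP sorts, and the part of the gates in this contrast was not tested. It differed for 5 of the 45 genes, 4 of them with a higher value in CMPs (8.89%) and 1 with a lower value (2.22%), against 5.05% and 2.3% of all genes (edgeR adjusted p under 0.05). Samd9l, Ifitm1 and Oasl2 fell less or were not called in CMPs, with differences of 2.76, 1.65 and 2.26 on the log2 scale (edgeR adjusted p of 0.00843, 0.0244 and 0.0201). Ube2l6 fell in CMPs and was not called in GMPs, with a difference of -1.69 (edgeR adjusted p = 0.0418), and Ifi205 had an edgeR adjusted p of 0.0291, its fitted difference resting on libraries with 0 counts. The call of Samd9l held without each library and under each alternative tried, whereas the others were lost under some. Without CD62L-neg CMP replicate 1 or without CD62L-high GMP replicate 1, no gene had a lower value in CMPs, and 3 and 5 genes had a higher one.

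Few of these genes, and few of all genes, were called between CD62L-high and CD62L-int GMPs. None of the 45 genes rose and 1 fell (2.22%), against 0.331% of all genes that rose and 0.885% that fell, and the median log2 fold change was -0.05, beside 0 for all genes. Libraries did not overlap for 6 genes above and 8 below (13.3% and 17.8% of the 45), against 9.53% and 8.86% of all genes. By DESeq2, 0 rose and 3 fell, against 0.626% and 1.53% of all genes. At an unadjusted p under 0.05, edgeR gave 3 of the 45 higher and 9 of the 45 lower, against 6.61% and 6.43% of all genes. The gene that fell was Oasl2, with a log2 fold change of -2.30 ± 0.45 (SE; edgeR adjusted p = 0.00711). Without CD62L-int GMP replicate 1 no gene was called, 2 genes fell without CD62L-high GMP replicate 1 or without bulk CMP replicate 2, and 3 without both.

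GMPs were then set against CMPs of the CD62L sort of the same name, and bulk against bulk, to ask how these genes differ between the stages. The CD62L gates of GMPs and CMPs differed in width, so these sorts are not matched on CD62L level. The part of the gates in these differences was not tested. In all 3 comparisons the genes called were lower in GMPs, with the exception of Ifi204. In CD62L-high GMPs over CD62L-high CMPs, 0 of 45 rose and 9 fell (20%), against 2.53% and 5.11% of all genes, and the median log2 fold change was -0.59, beside -0.03 for all genes. In CD62L-neg GMPs over CD62L-neg CMPs, 1 rose (2.22%) and 7 fell (15.6%), against 6.49% and 6.11%, with a median of -0.37, beside -0.01. In bulk GMPs over bulk CMPs, 0 rose and 12 fell (26.7%), against 4.19% and 7.3%, with a median of -0.60, beside 0.00.

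By DESeq2, 0 rose and 11 fell between the CD62L-high sorts (2.71% and 6.02% of all genes), 1 rose and 9 fell between the CD62L-neg sorts (6.33% and 7.39%), and 0 rose and 15 fell between the bulk sorts (4% and 9.57%). At an unadjusted p under 0.05, edgeR gave 0 higher and 23 lower between the CD62L-high sorts (10.9% and 12.8% of all genes), 1 and 14 between the CD62L-neg sorts (16.5% and 15%), and 1 and 20 between the bulk sorts (16.1% and 16.9%). Without bulk CMP replicate 2, 10 genes fell in bulk GMPs, and 12 fell without either of the other bulk CMP libraries. Without CD62L-high GMP replicate 1, 11 genes fell in CD62L-high GMPs. Without both libraries rich in the 3 gene models, 12, 10 and 11 genes fell in the CD62L-high, CD62L-neg and bulk comparison.

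The log2 fold change was negative for 39, 36 and 35 of the 45 genes in the CD62L-high, CD62L-neg and bulk comparison, in that order, and libraries lay without overlap below CMPs for 22, 20 and 20 genes (48.9%, 44.4% and 44.4%, against 16.5%, 19.9% and 16.6% of all genes). They lay without overlap above CMPs for 1, 0 and 2 genes, against 14.7%, 20.6% and 19% of all genes. The comparisons use separate libraries. The CD62L-high and CD62L-neg libraries also enter the comparisons by CD62L above, so these values are not independent of those.

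Ifi203, Ifitm1 and Rsad2 fell in all 3 comparisons. Ifi203 had log2 fold changes of -1.29 ± 0.23, -1.23 ± 0.24 and -1.14 ± 0.23 (SE; edgeR adjusted p of 0.000301, 0.000412 and 0.000958) in the CD62L-high, CD62L-neg and bulk comparison. Ifitm1 had log2 fold changes of -2.82 ± 0.35, -1.17 ± 0.30 and -2.88 ± 0.33 (SE; edgeR adjusted p of 4.04e-06, 0.00646 and 1.09e-06). Thus a gene that went with high CD62L and a gene that went with low CD62L were both lower in GMPs. Rsad2 had 1.82, 4 and 2.85 CPM in CD62L-high, 12.7, 8.04 and 6.76 CPM in CD62L-neg and 2.95, 3.89 and 6.398 CPM in bulk CMPs, all above the means of the matching GMP sorts, with log2 fold changes of -2.08, -1.77 and -1.85, but its adjusted p lay close to the threshold (edgeR, 0.041 to 0.0465) and the calls were lost in most fits that left out a library.

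**Figure D5:**
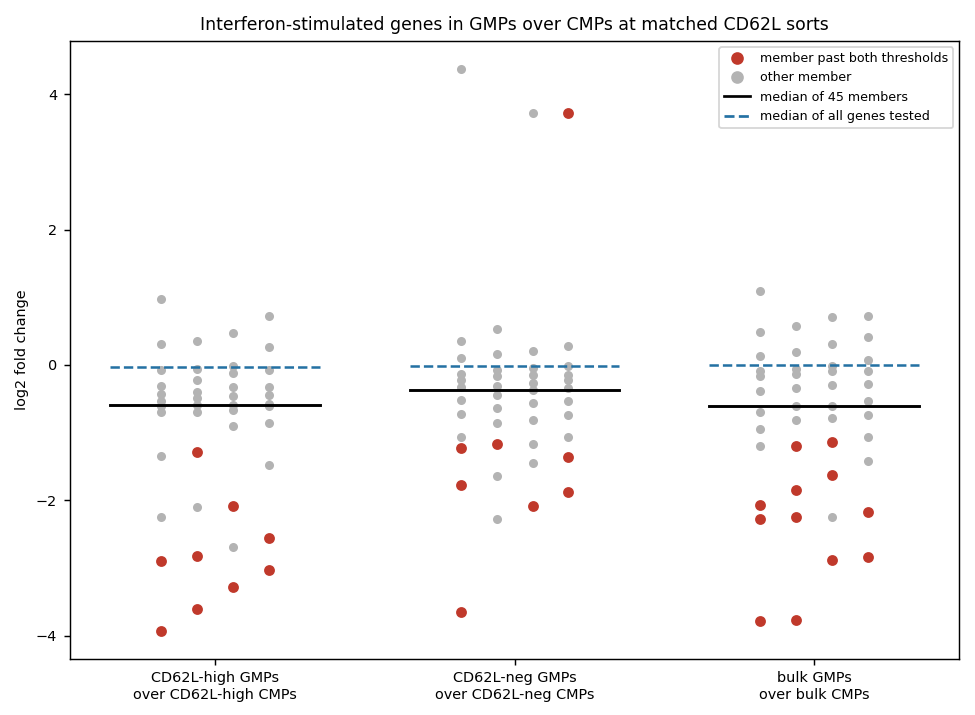
Log2 fold changes of the 45 genes past the filter in GMPs over CMPs, for the CD62L-high, CD62L-neg and bulk sorts. Red points passed both thresholds (9, 8 and 12 genes), grey points did not, the solid line is the median of the 45 genes and the dashed line the median of all genes tested. All medians of the 45 genes lie below those of all genes, and the red point above 0 is Ifi204 in the CD62L-neg sorts.

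Oas2, Oasl2, Samd9l, Ddx58, Ifi205 and Rtp4 fell in the CD62L-high and the bulk comparison. Samd9l fell by 3.93 ± 0.51 (SE) on the log2 scale in CD62L-high GMPs (edgeR adjusted p = 9.05e-06) and by 1.63 ± 0.46 in bulk GMPs (edgeR adjusted p = 0.0128). Oasl2 fell by 2.90 ± 0.46 and 2.25 ± 0.44 (SE; edgeR adjusted p of 8.52e-05 and 0.000695). Ddx58 fell by 2.56 ± 0.58 and 2.07 ± 0.53 (SE; edgeR adjusted p of 0.0038 and 0.00722). For Oas2 the log2 fold changes were -3.60 and -3.77, and for Ifi205 they were -3.28 and -2.84 (edgeR adjusted p of 0.00657 to 0.0257).

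Rtp4, a chaperone of receptors at the cell surface, had 1.06, 0 and 0.134 CPM in CD62L-high GMPs against 1.98, 2.92 and 4.76 CPM in CD62L-high CMPs. It had 0.303, 0 and 0.459 CPM in bulk GMPs against 5.63, 0.598 and 4.31 CPM in bulk CMPs. In CD62L-neg GMPs and CMPs it had 2.45, 3.3 and 1.36 CPM and 9.32, 9.32 and 3.52 CPM, and in CD62L-int GMPs 0.134, 1.13 and 0.656 CPM. The log2 fold changes called were -3.03 ± 0.97 and -3.79 ± 1.03 (SE; edgeR adjusted p of 0.0409 and 0.0104) in the CD62L-high and bulk comparison. Rtp4 overlaps the gene model Gm45338 on its own strand over 39791 bases, so its counts are uncertain.

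Ube2l6 and Oas3 fell in the CD62L-neg and the bulk comparison. Ube2l6 fell by 2.09 ± 0.36 and 2.27 ± 0.38 (SE; edgeR adjusted p of 0.000141 and 0.000138). Oas3, the long OAS enzyme, had 4.74, 1.81 and 2.64 CPM in CD62L-neg GMPs against 14.5, 9.06 and 10.4 CPM in CD62L-neg CMPs, and 4.24, 1.31 and 2.75 CPM in bulk GMPs against 8.58, 16.4 and 13.1 CPM in bulk CMPs. CD62L-high GMPs had 6.62, 1.56 and 0.6696 CPM and CD62L-int GMPs 2.15, 1.22 and 1.58 CPM, beside 7.27, 4.51 and 10.5 CPM in CD62L-high CMPs. Its log2 fold changes were -1.88 ± 0.58 and -2.18 ± 0.59 (SE; edgeR adjusted p of 0.0228 and 0.0108).

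Mx2 fell in the CD62L-neg comparison (-3.66 ± 1.07, SE; edgeR adjusted p = 0.0156), and Ifitm3 fell in the CD62L-neg (-1.36 ± 0.34; edgeR adjusted p = 0.00464) and the bulk comparison (-1.20 ± 0.33; edgeR adjusted p = 0.0123). Without bulk CMP replicate 2, the bulk value of Ifitm3 was -0.54 and the call was lost. The exception among these directions was Ifi204, which was 14.4-fold higher in CD62L-neg GMPs than in CD62L-neg CMPs on 47 against 2 counts, with a 95% counting interval of 3.78 to 123 (edgeR adjusted p = 0.0165). The libraries overlapped at 0, and the call was lost without CD62L-neg CMP replicate 2, CD62L-neg CMP replicate 3 or CD62L-neg GMP replicate 3. Without CD62L-neg CMP replicate 1 or CD62L-neg GMP replicate 2, 4 genes in place of 7 were called lower between the CD62L-neg sorts.

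The remaining 23 genes of the set past the filter were called in none of these comparisons. They comprised Stat2 and Adar, the RNA-binding kinase gene Eif2ak2 (PKR), Parp9, Parp14 and Dtx3l, the IRG GTPases Igtp and Irgm1, Usp18 (the protease that removes ISG15), Trim25 and Bst2 (tetherin), among others. Several were among the more abundant of the set, such as Adar at 35.3 to 85.5 CPM and Dtx3l at 67.5 to 111 CPM over the 21 libraries. Parp9 and Dtx3l overlap on opposite strands over 682 bases, and the sources do not say whether strand was used in counting.

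Other genes of the interferon pathway were taken from a list of 53, of which 31 passed the filter. None of the 21 interferon genes on it did. Of the receptors, kinases, factors, adaptors and regulators, 9 of 31 rose (29%) and 1 fell (3.23%) in CD62L-high over CD62L-neg CMPs. Of all genes, 5.62% rose and 4.84% fell there. In GMPs 6 rose (19.4%) and 0 fell, against 4.49% and 6.01% of all genes, and the other 25 were not called. Irf8, a factor that drives monocyte and dendritic cell development and binds ETS-IRF composite sites, had 738, 597 and 596 CPM in CD62L-high CMPs against 24.5, 7.41 and 6.76 CPM in CD62L-neg CMPs, and 787, 747 and 719 CPM in CD62L-high GMPs against 22.8, 20.98 and 13.1 CPM in CD62L-neg GMPs. Its log2 fold changes were 5.63 in CMPs and 5.31 in GMPs (edgeR adjusted p of 5.51e-11 and 8.24e-11). Ifnar2, a chain of the type I interferon receptor, rose by 1.43 and 1.39 on the log2 scale (edgeR adjusted p of 2.36e-07 and 3.71e-07).

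In contrast, Jak1, Jak2, Tyk2 and Irf9 were not called in CMPs or GMPs, although Jak2 passed the adjusted p with a log2 fold change of -0.99 in CMPs (edgeR adjusted p = 1.07e-05). Irf9 had log2 fold changes of 0.13 ± 0.21 and 0.68 ± 0.21 (SE; edgeR adjusted p of 0.776 and 0.0284), the second under the fold threshold. The interferon gamma receptor chain Ifngr1 fell by 1.20 in CD62L-high CMPs (edgeR adjusted p = 1.37e-06), while its partner Ifngr2 rose by 2.39 (edgeR adjusted p = 6.03e-06). Of the 5 receptor genes past the filter, 2 rose and 1 fell in CMPs, against 5.62% and 4.84% of all genes. In GMPs 2 of them rose and 0 fell, against 4.49% and 6.01% of all genes.

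Markers of several other cell types differed between the same sorts. The summed level of 9 monocyte and macrophage markers, which include Irf8, was 3443 to 3934 CPM in CD62L-high GMPs against 280.0 to 317.9 CPM in CD62L-neg GMPs, and 1732 to 2177 CPM in CD62L-high CMPs against 28.5 to 66.1 CPM in CD62L-neg CMPs. The 9 dendritic cell markers summed to 527 to 647 CPM in CD62L-high CMPs against 68.2 to 124 CPM in CD62L-neg CMPs, and to 70.4 to 95.8 CPM in CD62L-high GMPs against 37.7 to 51.5 CPM in CD62L-neg GMPs. The defining marker Siglech of plasmacytoid dendritic cells was at 0 in all GMPs and at 0.762 to 4.19 CPM in CD62L-high CMPs. The 6 megakaryocyte markers summed to 10.8 to 18.03 CPM in CD62L-high CMPs against 524 to 585 CPM in CD62L-neg CMPs. In GMPs they summed to 0.0742 to 0.603 CPM in the CD62L-high and 109 to 135 CPM in the CD62L-neg sort. The 6 eosinophil, basophil and mast cell markers summed to 2.78 to 6.63 CPM in CD62L-high GMPs against 1714 to 2578 CPM in CD62L-neg GMPs. In CMPs these summed to 20.7 to 25.2 CPM in the CD62L-high and 37.2 to 85.2 CPM in the CD62L-neg sort. The 8 erythroid markers summed to 0.87 to 7.92 CPM in CD62L-high CMPs against 181 to 209 CPM in CD62L-neg CMPs. In GMPs they summed to 0.134 to 0.408 CPM in the CD62L-high and 15.8 to 28.0 CPM in the CD62L-neg sort. The 11 neutrophil markers summed to 7279 to 8470 CPM in CD62L-high CMPs against 887 to 1789 CPM in CD62L-neg CMPs. In GMPs their sums overlapped (19600 to 25600 CPM in the CD62L-high and 24250 to 26240 CPM in the CD62L-neg sort). There, 9 of the 11 had a negative log2 fold change. Between the stages, neutrophil markers summed to 19600 to 26240 CPM in the 12 GMP and 887 to 8470 CPM in the 9 CMP libraries. They were thus higher in GMPs, whereas most called genes of the set were lower. In bulk GMPs against bulk CMPs, monocyte and macrophage markers were also higher (2160 to 2218 against 538 to 762 CPM). So were eosinophil, basophil and mast cell markers (200 to 211 against 59.8 to 63.25 CPM). Dendritic cell markers were lower there (52.4 to 71.3 against 299 to 348 CPM). So were megakaryocyte (20.1 to 25.15 against 149 to 157 CPM) and erythroid markers (1.06 to 5.66 against 31.3 to 59.2 CPM). T and NK cell markers summed to at most 2.87 CPM in any library. The part of these cell types in the differences above was not tested.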

How the data were processed

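RNA was measured in 21 libraries, 3 of each of 7 sorted populations. The deposited values are whole-number counts per gene, which the authors made by trimming reads with Trim Galore, aligning them with HISAT2 to mm10 and counting with HTSeq (bcl2fastq is also named). These come from the submitters' processing notes, and versions and the strand setting of the counting are not given in the sources used here. The labels name a SMARTer Stranded kit and the study's methods SMART-Seq v4. No column of per-sample values was left unused.

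All 21 libraries were fitted together in edgeR 4.0.16 (R 4.3.3), with filterByExpr, TMM scaling and the quasi-likelihood test, and p-values were adjusted by Benjamini and Hochberg over all 14801 genes. Calls needed an adjusted p under 0.05 and a fold over 2, while the contrast of CMP and GMP effects and the test over all 7 populations used the adjusted p alone. Standard errors are derived from the F statistic. CPM were computed from TMM-scaled library sizes, the floor was 3 counts, and counting intervals cover counting error only. Annotation was matched for 47224 of 47643 identifiers (99.12%). The method was tested on simulated data. Libraries sharing a replicate number did not deviate together (correlations of -0.089 to 0.083, none over 0.1), so the numbers were not used as pairs. The alternatives were other scaling (size factors of the DESeq2 type), no filter, DESeq2 1.42.0, a replicate block, fitting only the groups compared, removal of 3 abundant gene models, no fold threshold, leaving out each library, and leaving out both libraries rich in those gene models.

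The 46 genes, the pathway and marker lists and the tests were chosen with earlier results of these data known. Each gene called in at least 1 comparison between populations is named with its value in every library, and the others are given by range and count. Of the genes called in CMPs whose matched promoter holds an ISRE, the promoters of up to 3 per direction with the largest change are printed, plus those of the IFITM family. Some items are not reported here.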

Additional observations from a re-analysis of the deposited data

Results flagged for a closer look

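For 5 genes the CD62L-high over CD62L-neg effect differed between CMPs and GMPs, by the edgeR contrast of both effects. The CD62L gates were narrower in GMPs than in CMPs, and their part in these differences was not tested. Samd9l had a difference (CMP minus GMP, log2) of 2.76 (edgeR adjusted p = 0.00843), the fold changes being -1.26 in CMPs and -4.02 in GMPs. Oasl2 had a difference of 2.26 (edgeR adjusted p = 0.0201) and Ifitm1 of 1.65 (edgeR adjusted p = 0.0244), and both had more negative values in GMPs. Ube2l6 had a difference of -1.69 (edgeR adjusted p = 0.0418), a value lost in 11 of 20 alternatives. Ifi205 had a fitted difference of 7.66 (edgeR adjusted p = 0.0291) against libraries with 0 counts, so its size is not a measure of the fold, and without CD62L-neg GMP replicate 3 the fitted difference was 3.31.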

How the results depend on the processing

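Of 956 values of named genes under the alternatives, 831 kept direction and call, 125 lost the call and 0 reversed. Between CD62L-high and CD62L-int GMPs, the 1 gene that fell became 4 with no filter, 3 by DESeq2 and 3 without both libraries rich in the 3 gene models (an alternative chosen after seeing the data), and 0 when only the groups compared were fitted. Genes with a lower CD62L effect in CMPs than in GMPs numbered 1, against 2 with no filter, 2 with only the groups compared and 0 with the replicate block. Between the CD62L-neg sorts, the 1 gene that rose in GMPs became 0 with only the groups compared. Leaving out each library in turn gave 5 to 7 genes that rose and 3 to 7 that fell in CD62L-high CMPs, 4 to 7 and 6 to 11 in CD62L-high against CD62L-neg GMPs, and 0 and 0 to 2 against CD62L-int GMPs. For GMPs over CMPs it gave 0 to 1 that rose and 4 to 8 that fell in CD62L-neg, 0 and 6 to 11 in CD62L-high, and 0 and 9 to 12 in bulk sorts. For the CMP minus GMP difference it gave 2 to 5 higher and 0 to 2 lower, and 28 to 33 genes differed over all populations. With the replicate block, 6 and 6 genes rose and fell in CMPs and 6 and 9 in GMPs, and it moved no other count by over 1.5 times. The causes were not tested. Low counts limit Ifit1, Isg15, Mx2, Oas2, Ifi204 and Ifitm6.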
